A study of Arabidopsis thaliana with 6 samples.

Results

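Chromosome 1 of Arabidopsis thaliana carries CMT3, and the segment described here lies beyond that gene, from 27 to 28 Mb in the Release 6 coordinates of the array files. It was chosen by position with the cmt3 values already known, so everything given here for cmt3 is a description, and no p-value is printed for a gene in it. The segment held 283 gene models. Of these, 1 pseudogene and 1 retroelement were left out by the words in their descriptions, and SUVH3, JAZ6 and HSP101 were left out by locus, which leaves 278 of the 30361 gene models on the array. The segment starts 748 kb and ends 1748 kb beyond the start of CMT3 (26251990 on chromosome 1).

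The study compared 3 genotypes on 6 one-colour arrays, 2 for each: wild type Col-0, a kyp mutant and a cmt3 mutant. All RNA came from young leaves of plants kept for 4 weeks on soil under long days. The labels name neither the alleles of the mutants nor the strain in which they were made. They also leave unsaid whether paired arrays stand for separate plants or extractions. Each p-value is thus set against array-to-array spread, part of which may be technical.

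KYP, also called SUVH4, is a histone methyltransferase that places methyl groups on lysine 9 of histone H3. CMT3 is a DNA methyltransferase that binds this mark and maintains cytosine methylation in the CHG context, and together the enzymes keep transposable elements silent. As background from genetics, genes that lie near a mutated locus tend to be inherited along with it. The segment holds clusters of immune receptor genes, serine carboxypeptidase-like genes and receptor-like protein genes.

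Values are log2 of the normalized intensity, in which 1 unit is a 2-fold difference, and array medians lay between 9.89 and 9.96. The arrays of a genotype correlated at 0.986 to 0.987 across gene models, which are not independent replicates. The highest correlation of any pair, 0.9885, was between kyp replicate 2 and cmt3 replicate 1, which share a slide. The other pairs of different genotypes ran from 0.9683 to 0.9856. Leaf genes marked the tissue in every array: CAB1, a chlorophyll-binding protein, stood at 15.95 and 15.98 in wild type. CMT3 measured 12.61 and 12.59 in wild type, 12.79 and 12.70 in kyp, and 10.94 and 10.97 in cmt3, so both cmt3 arrays lay below all the others. By image name, slide 1 carried wild type and the first kyp array, and slide 2 carried cmt3 and the second kyp array. Genotype and slide therefore cannot be told apart between wild type and cmt3 except through the kyp arrays. In whole leaves, fewer cells of a type and less RNA per cell cannot be told apart either.

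In cmt3, 41 of the 278 genes differed from wild type by at least 2-fold with no overlap between the arrays, 17 of them higher and 24 lower. This is 14.7% of the segment. The same rule took 8.21% of the 26702 gene models on the array that are not named as transposons or pseudogenes, 3% higher and 5.21% lower. In the segment the shares were 6.12% higher and 8.63% lower. Since the segment was chosen on this comparison, nothing is read from the excess. With SUVH3, JAZ6 and HSP101 put back, the count was 43 of 281, and the differences of these genes were -0.12, -1.32 and -2.23.

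The other 30 windows of 1 Mb on chromosome 1 had shares from 4.31% (16 to 17 Mb) to 13.0% (24 to 25 Mb), with a median of 8.39%. The windows beside the segment held 32 of 259 genes (12.4%, 26 to 27 Mb, which contains CMT3) and 19 of 261 (7.28%, 28 to 29 Mb). The segment thus had the most such genes and the highest share of the 31 windows. It also had the most genes past 4-fold, 13 against 0 to 8 elsewhere. Its typical gene stood out less: the median size of the cmt3 difference was 0.32, the fifth highest of the 31 windows, against 0.27 for chromosome 1 outside the segment. Across all chromosomes, 107 windows held at least 100 genes, and the segment ranked 2 by share, after 16.7% (25 of 150 genes) at 6 to 7 Mb of chromosome 2.

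**Figure D1:**
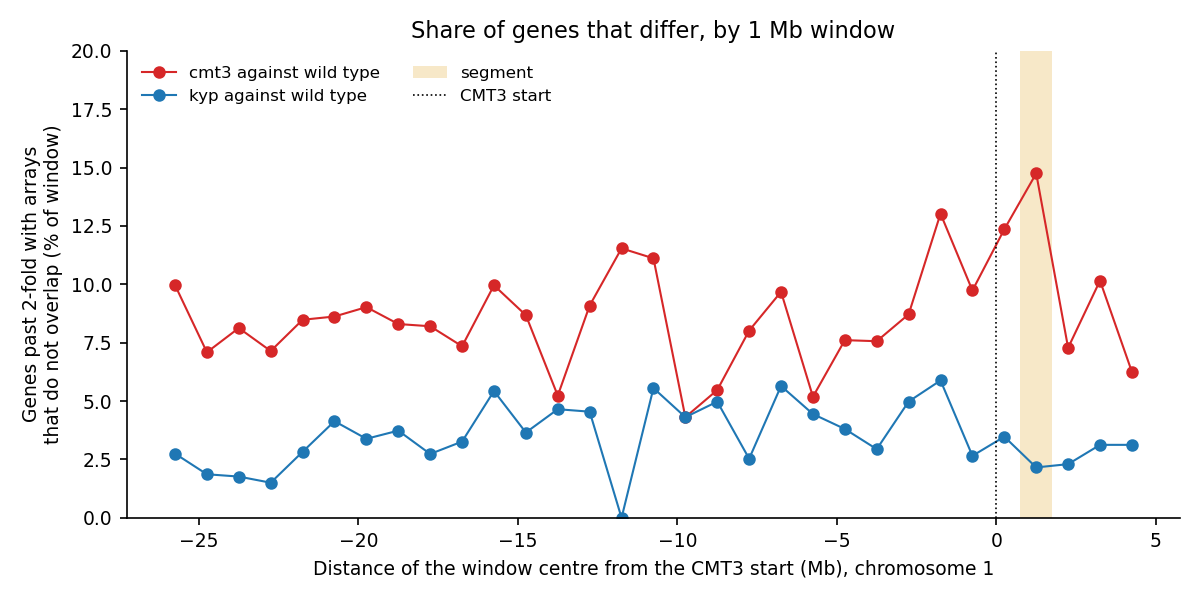
Share of genes at least 2-fold from wild type with arrays that do not overlap, in percent, for each 1 Mb window of chromosome 1, in cmt3 and in kyp. The segment stands at 14.7% in cmt3, above the other windows at 4.31% to 13.0%, and at 2.16% in kyp.

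In kyp the segment did not stand above the other windows. Past 2-fold without overlap were 6 of 278 genes (2.16%), 1 higher and 5 lower. The background was 3.46% of gene models, 1.33% higher and 2.13% lower. By share the segment ranked 27 of the 31 windows, whose other values ran from 0 to 5.88%. The median size of the kyp difference was 0.16, and the wild type arrays differed from each other by a median of 0.12 in the segment. Both comparisons use the same wild type arrays, so kyp and cmt3 values are set side by side and not counted as independent.

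The 41 genes were spread along the whole segment. Each of its 10 stretches of 100 kb held at least 1, with 1 of 20 genes in the first stretch, 6 of 29 in the second, 7 of 30 and 7 of 31 in the fifth and the sixth, and 7 of 31 in the last. The median distance between successive genes was 12.2 kb and the largest 74.7 kb. Among neighbours, 9 next-door pairs were both past 2-fold, 6 in the same direction and 3 in opposite directions. This count is not set against other windows, so nothing is read from it. Most members moved little: 181 of 278 (65.1%) lay within 0.5 of wild type in cmt3, and 239 (86.0%) in kyp.

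**Figure D2:**
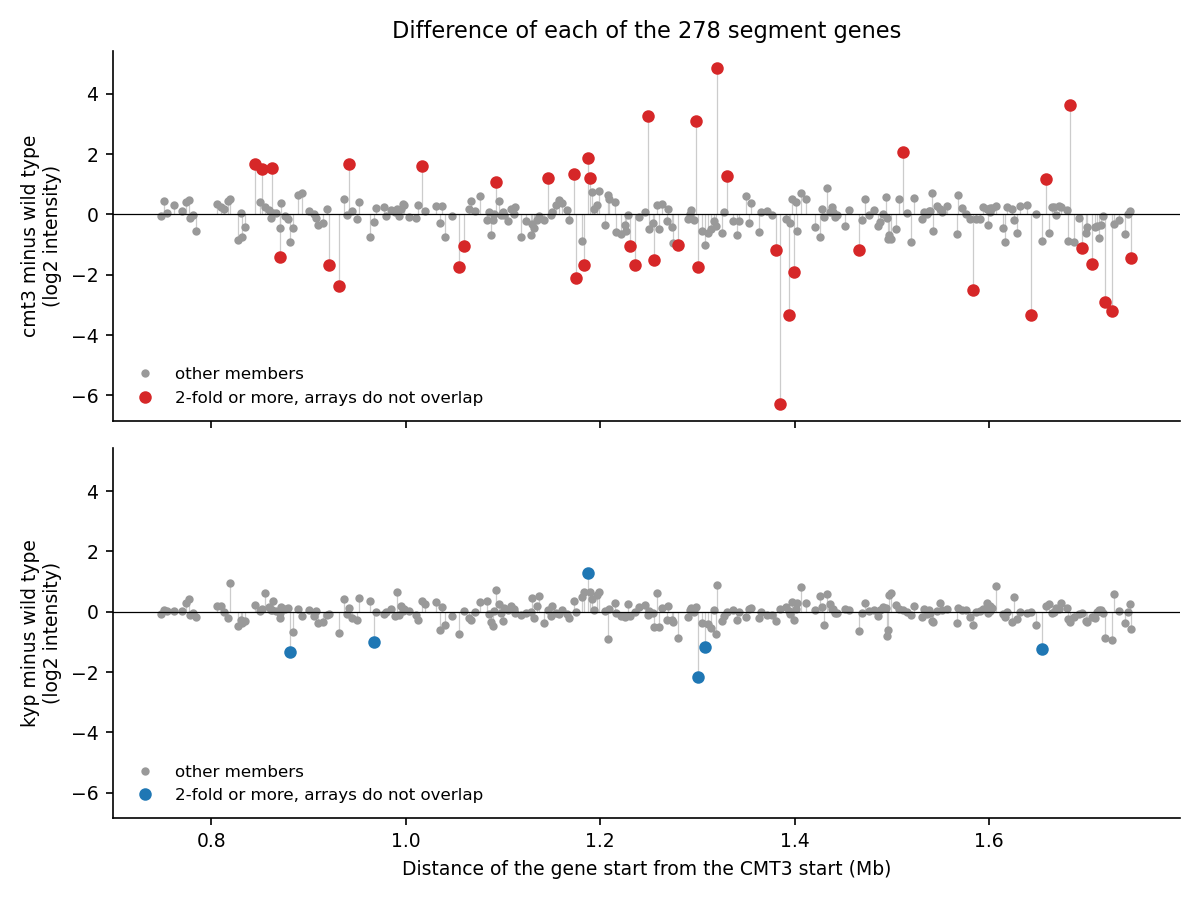
Log2 difference from wild type of each of the 278 genes against distance from the start of CMT3 in Mb, for cmt3 and for kyp. Genes past 2-fold in cmt3, 17 higher and 24 lower, lie between others within 0.5 of wild type.

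The largest cmt3 difference in the segment belonged to AT1G73490, an RNA-binding protein gene at 27636927 to 27638593. It measured 13.75 and 13.78 in wild type, 13.87 and 13.82 in kyp, and 7.83 and 7.15 in cmt3. Both cmt3 arrays lay far below the other 4 arrays, a difference of -6.28 ± 0.24 (SE) or 77.6-fold. RLP13, which encodes a receptor-like protein of the cell surface (27895155 to 27899306), gave a similar picture at 11.42 and 11.30 in wild type, 11.33 and 11.38 in kyp, and 7.94 and 8.13 in cmt3. Its difference was -3.32 ± 0.12, or 10.01-fold, and again kyp stayed at the wild type level. AT1G74010, annotated as a strictosidine synthase, measured 7.13 and 7.24 in wild type, 6.55 and 6.95 in kyp, and 4.60 and 4.75 in cmt3. Its cmt3 arrays were the lowest of the 6, with a difference of -2.51 ± 0.17, and its neighbour SS2 differed by -0.16.

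DR4 and KTI1, both protease inhibitor genes, were among those with the largest positive cmt3 differences. DR4, a Kunitz-type inhibitor family gene first known as repressed by drought (27572379 to 27573378), measured 5.75 and 5.56 in wild type, 5.91 and 7.15 in kyp, and 10.52 in both cmt3 arrays. The cmt3 arrays lay above all others, 29.2-fold above wild type (4.87 ± 0.43), and kyp replicate 2 lay above the 3 arrays of slide 1. KTI1, a Kunitz trypsin inhibitor (27550935 to 27551851), measured 7.10 in both wild type arrays, 7.77 and 6.75 in kyp, and 10.31 and 10.12 in cmt3. Its kyp arrays fell on either side of wild type, and the cmt3 difference was 3.11 ± 0.36, or 8.65-fold. Of the 4 members described as endopeptidase inhibitors, a list drawn up after values were seen, KTI1 was higher past 2-fold and AT1G72060 lower (-1.41), against 5 of 24 (20.8%) past 2-fold on the whole array. The other two differed by -0.26 (AT1G72290) and -0.39 (AT1G73325), and the median of the 4 was -0.33. DR4, whose description in the array files names no inhibitor, is not among these 4. In kyp 1 of the 4 was past 2-fold, against 2 of 24 (8.33%) on the whole array.

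Further genes were near the low end of the scale in wild type and high in cmt3. AT1G73120, of unknown function, measured 4.79 and 5.15 in wild type, 4.56 and 5.15 in kyp, and 8.03 and 8.46 in cmt3, 9.70-fold higher. AT1G74290, annotated only as catalytic, measured 6.12 and 6.62 in wild type, 6.82 and 5.27 in kyp, and 10.26 and 9.76 in cmt3, 12.5-fold higher. For both, the cmt3 arrays lay above the other 4 arrays. Of the 41 genes, 3 came from the lowest 25% of wild type levels, all of them higher in cmt3. A fold from such a level is a fold of intensity and may understate the change in transcript.

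**Figure D3:**
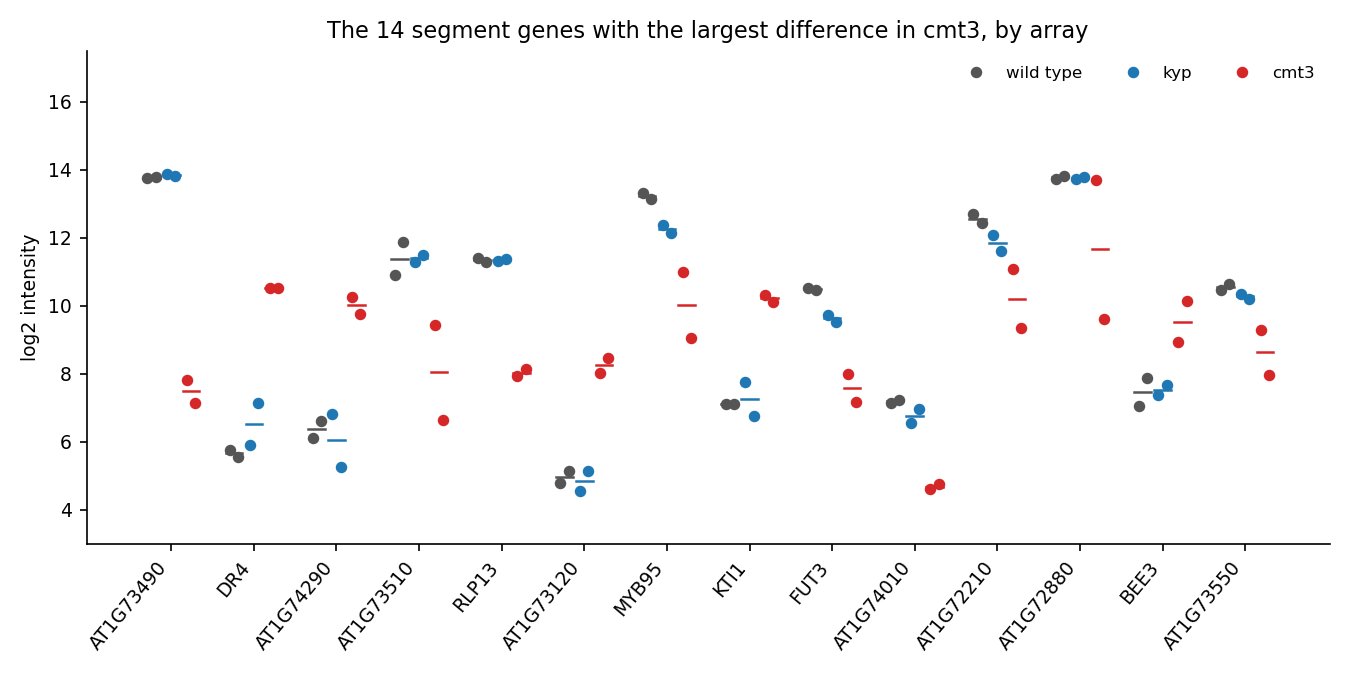
Log2 intensity in each of the 6 arrays for the 14 genes with the largest cmt3 difference among those whose arrays do not overlap. AT1G73490 and RLP13 are low in both cmt3 arrays only, and DR4, AT1G74290, AT1G73120 and KTI1 are high there.

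In the second stretch of 100 kb, the cmt3 arrays lay close together for FUT13 and AT1G72030, while for AT1G72210, AT1G72060 and AT1G72240 in the same stretch they were more than 1 apart. FUT13, a fucosyltransferase that modifies N-glycans, measured 11.38 and 11.43 in wild type, 11.42 and 11.54 in kyp, and 12.91 and 12.92 in cmt3. AT1G72030, an N-acetyltransferase, measured 12.25 and 12.31 in wild type, 12.25 and 12.43 in kyp, and 13.89 and 13.77 in cmt3. The cmt3 arrays lay above the other 4 in both genes, by 1.51 ± 0.10 and 1.55 ± 0.11.

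In a second set of genes the cmt3 arrays disagreed with each other. MYB95, a transcription factor of the R2R3-MYB family, measured 13.30 and 13.13 in wild type, 12.39 and 12.15 in kyp, and 11.00 and 9.06 in cmt3. Its neighbour FUT3, of the fucosyltransferase family, measured 10.51 and 10.45 in wild type, 9.73 and 9.52 in kyp, and 8.01 and 7.17 in cmt3. In both, kyp lay between wild type and cmt3, and replicate 2 was the lower cmt3 array. AT1G73510, of unknown function, measured 10.90 and 11.86 in wild type, 11.28 and 11.50 in kyp, and 9.45 and 6.64 in cmt3. Both cmt3 arrays were below the other 4, and the difference of -3.34 was -1.93 without replicate 2. PEPR1, the receptor kinase for the Pep danger peptides, measured 15.31 and 15.53 in wild type, 15.47 and 15.31 in kyp, and 14.65 and 12.84 in cmt3. LOX4, a lipoxygenase of jasmonate synthesis, measured 15.82 and 15.60 in wild type, 15.72 and 15.73 in kyp, and 15.56 and 13.78 in cmt3. For LOX4 it is replicate 2 that carries the mean difference of -1.04. The same holds for AT1G72880, an acid phosphatase, whose cmt3 arrays stood at 13.70 and 9.62 against 13.74 and 13.83 in wild type, a difference of -2.12 that was -0.08 without replicate 2.

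Over the 41 genes, each cmt3 array was at least 2-fold outside both wild type arrays in 23 (56.1%), against 34.5% of the 551 such genes on the rest of chromosome 1. The cmt3 arrays were less than 0.5 apart in 18 (43.9%, against 47.7% on the rest of chromosome 1), of which 12 were higher and 6 lower. They were at least 1 apart in 14 (34.15%, against 25.95% on the rest of chromosome 1), of which 3 were higher and 11 lower. In 13 of these 14 genes replicate 2 was the farther from wild type. Taken singly, replicate 1 of cmt3 had 30 of the 278 genes at least 2-fold outside both wild type arrays (10.8%). Replicate 2 had 45 (16.2%). On the rest of chromosome 1 these shares were 4.82% and 8.48%. The kyp arrays had 2 (0.719%) and 10 (3.60%), against 2.08% and 3.66% on the rest of the chromosome.

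**Figure D4:**
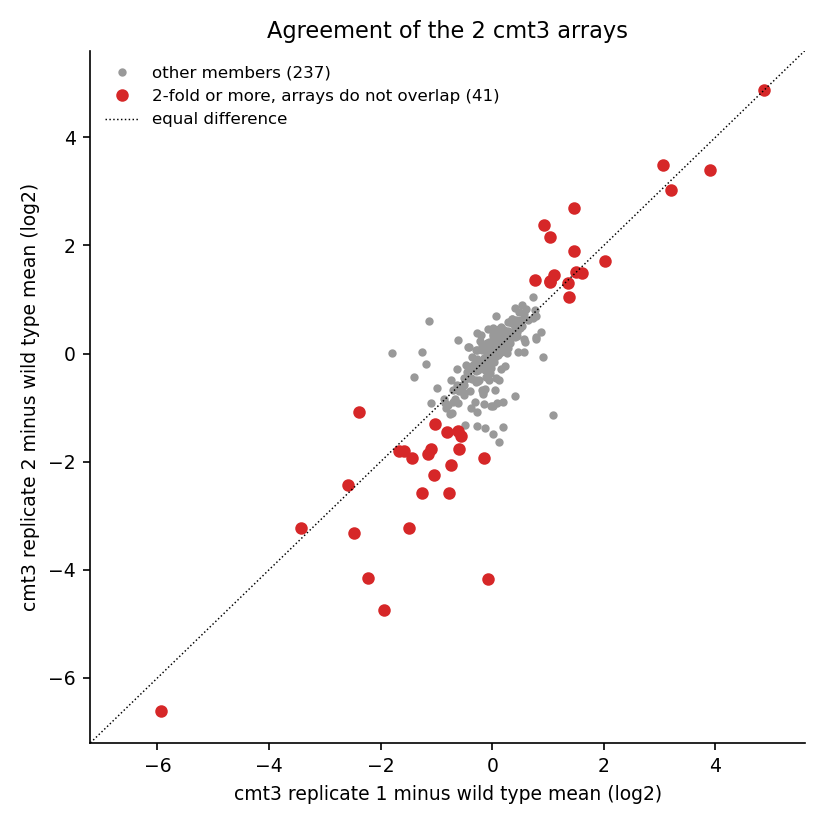
Difference from the wild type mean in cmt3 replicate 1 against that in replicate 2, on the log2 scale, for the 278 genes. Of the 41 genes past 2-fold, 32 lie farther from wild type in replicate 2 and 9 in replicate 1.

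The slide was examined with the kyp array that shares it with cmt3. Kyp replicate 2 was at least 2-fold from both cmt3 arrays in 18 members (6.47%), and in 2.27% of genes on the rest of chromosome 1, where windows ran from 0.376% to 5.43%. Kyp replicate 1, on the other slide, met the same condition in 25 members (8.99%) and in 4.30% of genes on the rest of the chromosome. Of the 41 genes, 15 met this within-slide condition, and in 34 kyp replicate 2 stayed within 2-fold of the wild type mean. These shares use the cmt3 arrays on which the segment was chosen, so nothing is read from their excess in the segment. With the slide as a block, 35 genes were past 2-fold. Only kyp has an array on each slide, so the slide term of that fit rests on the difference between the 2 kyp arrays.

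Immune receptor genes of the TIR class sit together between AT1G72840 and AT1G72950, 11 genes described as transmembrane receptors. TIR domains pass on the signal when such receptors sense a pathogen. This list was drawn up after descriptions and values were seen. In cmt3, 3 were higher past 2-fold, 1 was lower and 7 did not pass, against 20 of 131 (15.3%) on the whole array. In kyp 1 of the 11 was past 2-fold, against 6 of 131 (4.58%). The median of the 11 was 0.31 in cmt3 and 0.41 in kyp.

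AT1G72910 measured 13.43 in both wild type arrays, 14.33 and 15.11 in kyp, and 15.45 and 15.15 in cmt3. All 4 mutant arrays lay above wild type. The kyp difference of 1.29 ± 0.29 was past 2-fold without overlap but was not called (limma adjusted p = 0.363). It was 0.90 without kyp replicate 2. AT1G72900, next to it, measured 10.87 and 11.01 in wild type, 11.29 and 11.90 in kyp, and 9.35 and 9.14 in cmt3, so the mutants lay on opposite sides of wild type. AT1G72920 measured 13.09 and 13.62 in wild type, 13.69 and 14.33 in kyp, and 14.73 and 14.39 in cmt3. AT1G72870 differed by 1.33 and the gene named TIR by 0.74 in cmt3. Whether probes of such related genes also bind their neighbours was not tested.

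The serine carboxypeptidase-like genes SCPL2 to SCPL6, members of a family of acyltransferases and peptidases, lie in 1 block beside KTI1. The mean of each of the 5 was below wild type in both mutants, with medians of -0.61 in cmt3 and -0.53 in kyp. The 54 such genes on the array had medians of 0.02 in cmt3 and -0.06 in kyp. Past 2-fold were 1 of the 5 in cmt3 and 2 in kyp, against 2 (3.70%) and 4 (7.41%) of the 54. SCPL6 measured 7.37 and 7.14 in wild type, 4.95 and 5.20 in kyp, and 5.59 and 5.45 in cmt3. All 4 mutant arrays lay below both wild type arrays. SCPL5 measured 6.83 and 6.82 in wild type, 6.34 and 4.95 in kyp, and 5.73 and 5.92 in cmt3. Its kyp difference rests on replicate 2 and was -0.48 without it.

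The receptor-like protein genes RLP13 to RLP16 form another block, listed after values were seen. Their cmt3 differences were -3.32 for RLP13, 0.01 for RLP14, -0.88 for RLP15 and 1.17 for RLP16. RLP13 and RLP16 thus lay past 2-fold in opposite directions, 2 of 4 against 8 of 52 (15.4%) on the array. In kyp the 4 differences were -0.00, -0.42, -1.23 and 0.20, with 1 past 2-fold against 3 of 52 (5.77%).

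**Figure D5:**
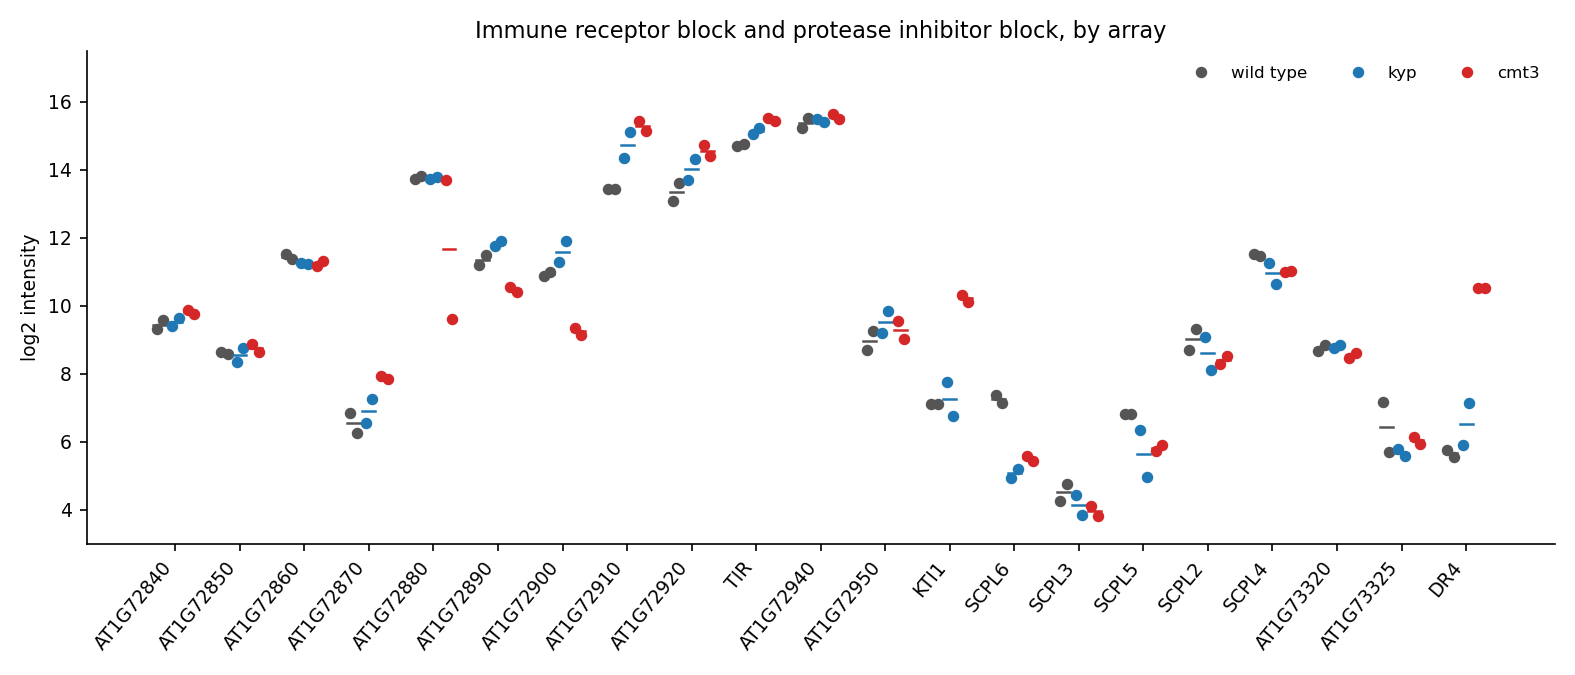
Log2 intensity in each of the 6 arrays for the TIR block and for the genes from KTI1 to DR4, with bars at the means. SCPL2 to SCPL6 have mutant means below wild type, while KTI1 and DR4 on either side are high in both cmt3 arrays.

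Signalling and regulatory genes were described by lists matched in the annotation. Of 19 protein kinases, 5 were past 2-fold in cmt3, all lower, and 0 in kyp. On the whole array 125 of 1312 kinases (9.53%) were past 2-fold in cmt3 and 25 (1.91%) in kyp. The 5 were PEPR1 (-1.67), AT1G74360 (-1.65), AT1G74490 (-1.44), CDKD1;1, a kinase that activates cell cycle kinases (-1.16), and AT1G74330 (-1.13). In none of these 5 was each cmt3 array at least 2-fold outside both wild type arrays. The median over all 19 kinases was -0.10 in cmt3.

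Of 17 transcription factors, 4 were past 2-fold in cmt3, 2 higher and 2 lower, and 0 in kyp. On the array 13.3% of 1616 were past 2-fold in cmt3 and 5.63% in kyp. BEE3, a brassinosteroid-responsive bHLH factor, measured 7.04 and 7.88 in wild type, 7.37 and 7.68 in kyp, and 8.92 and 10.14 in cmt3. HDG11, a homeodomain factor of the epidermis, differed by 1.28, and the lower pair was MYB95 and AT1G72210 (-2.36, and -1.50 without cmt3 replicate 2). Of 7 RNA-binding protein genes, AT1G73490 alone was past 2-fold, against 3.39% of 413 on the array.

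Other groups had few members. Of 2 sulfotransferases of glucosinolate synthesis, SOT16 differed by -0.91 and SOT18 by -0.44, neither past 2-fold. The 3 heat shock list members differed by -0.46 (AT1G72070), 0.28 (AT1G74250) and -0.11 (AT1G72416). CYP78A10, a cytochrome P450, differed by 0.23, and SUS6 and UGT89B1, which the glycosyltransferase pattern matched, by -0.22 and 0.00. That pattern did not match FUT13 (1.51) and FUT3 (-2.89), which are described as transferring glycosyl groups and are both past 2-fold. Of 88 genes described as unknown protein, 9 were past 2-fold, 5 higher and 4 lower, against 8.58% on the array. Some genes with this description carry a symbol, such as LPA3 (-1.04), which is among the 4 lower. The other 5 lists (Kunitz, leucine-rich repeat, ribosomal, F-box and pentatricopeptide repeat by name) matched 0 members.

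The kyp comparison played no part in choosing the segment and was tested gene by gene. No member was called at an adjusted p under 0.05 (limma, Benjamini-Hochberg over 30361 gene models). Over all 30361 gene models, transposons and pseudogenes included, 0.0988% were called higher and 0.00659% lower. Among the 26702 models not named as such, 12 were called higher and 1 lower. At an unadjusted p under 0.05 there were 32 members (11.5%), 19 higher and 13 lower, and 10.2% of all gene models. The smallest adjusted p belonged to SCPL6, at -2.18 ± 0.15 (adjusted p = 0.0602). HISN6B, an enzyme of histidine synthesis, followed at 13.65 and 13.80 in wild type, 14.69 and 14.67 in kyp, and 14.26 and 14.24 in cmt3. Its kyp difference was 0.96 ± 0.10 (limma adjusted p = 0.111), and all 4 mutant arrays lay above wild type.

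The remaining kyp differences past 2-fold were -1.35 for AT1G72110, -1.23 for RLP15, -1.18 for SCPL5 and -1.02 for AT1G72290, an endopeptidase inhibitor gene. All 4 start from low wild type levels, between 5.66 and 6.82. Over the alternatives the values ran from -1.74 to -0.95 for AT1G72110, from -1.89 to -0.57 for RLP15, from -1.87 to -0.48 for SCPL5 and from -1.15 to -0.89 for AT1G72290. Each of these genes therefore fell short of 2-fold under at least 1 alternative, RLP15 and SCPL5 without kyp replicate 2. The count of 6 rests on both kyp arrays: it was 16 without replicate 1 and 7 without replicate 2.

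For cmt3, the same limma rule took 8 members, 4 higher and 4 lower. The background over all 30361 gene models, transposons and pseudogenes included, was 0.56% higher and 0.181% lower. Among the 26702 models not named as such, 66 were called higher and 47 lower. The segment was chosen on this comparison, so the count of 8 is no test and nothing is read from it. It fell to 0 with the slide as a block. That fit has 2 residual degrees of freedom and takes its slide term from the 2 kyp arrays alone, so lost precision and a slide effect cannot be told apart.

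At the bounds of the segment the differences in cmt3 were small on both sides, apart from 1 gene. Just outside the lower bound they were -0.12 (AT1G71760), 0.32 (PAB5) and -0.18 (AT1G71780), and just inside it -0.04 (CPB), 0.44 (CSTF64) and 0.04 (AT1G71810). Just inside the upper bound they were 0.01 (AT1G74470, a chlorophyll synthesis reductase), 0.10 (RKD2) and -1.44 (AT1G74490), and just outside it 0.22 (BS1), -0.00 (AT1G74510) and -0.05 (HVA22A).

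The 41 genes and the other 237 were compared, without a test, in length, wild type level and probe number. The wild type level enters the difference that defines the 41, so it is not independent of that rule. Their median length was 2023 bp against 2087 bp, and their median wild type level 10.94 against 11.74. Models with 3 probes made up 36.6% of the 41 and 49.8% of the others.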

How the data were processed

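Per the labels, the authors normalized the 1-colour NimbleGen arrays by RMA, and the deposited intensities are on a linear scale. The RMA settings were not stated. Each intensity summarised 2 or 3 probes for every member (145 with 2, 133 with 3). The deposited files hold no background or detection values, so no gene was called absent and no filter on low values was used. The number of arrays limits the precision.

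Here the deposited intensities were transformed to log2 and fitted with limma 3.58.1 in R 4.3.3 over all 6 arrays without a block (3 residual and 1.41 prior degrees of freedom), with p-values adjusted over 30361 gene models. The fit was tested on simulated data. Errors of differences are limma's standard errors. A second rule counted genes with a mean difference of at least 2-fold and arrays that do not overlap. Windows and coordinates use the positions in the per-array files. Symbols came from RefSeq (TAIR10.1) by locus, which matched 276 of 278 members, none of whose coordinates were used. Slides were read from image names in the files.

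Named genes were the 14 members with the largest cmt3 difference and the 6 with the largest kyp difference among those whose arrays do not overlap, up to 3 of each of 16 description lists, the 3 models on each side of each bound, and CMT3. Further genes named were picked after seeing their values. The members and lists were chosen with earlier results of these data known, and 3 more lists were added after values were seen. Alternatives were a block for slide or replicate number, another normalization, a filter on low values, other bounds, folds, thresholds and moderation, and leaving out each array.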

Additional observations from a re-analysis of the deposited data

How the results depend on the processing

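Counts are of members called by limma or past 2-fold without overlap (kyp 0 and 6, cmt3 8 and 41). Under the alternatives, no share of all gene models is set beside these counts, so nothing is read from them about the segment. With the slide as a block, whose term rests on the 2 kyp arrays alone, cmt3 had 0 calls. The replicate block gave 3 cmt3 calls. Differences between same-numbered arrays correlated at -0.12, 0.00 and -0.04 between genotypes. With 2 arrays a genotype this cannot show whether the numbers pair the arrays, and the labels do not say. Without the lowest 25% of intensities kyp had 1 past 2-fold and cmt3 17 calls. With bounds moved down cmt3 had 4 calls. An intensity trend gave 1 call in kyp (HISN6B, limma adjusted p = 0.0113) and 49 in cmt3. An adjusted p under 0.10 gave 1 and 29. At 1.5-fold 26 members passed in kyp and 77 in cmt3, and at 4-fold 1 and 13. Requiring each array to be 2-fold outside, chosen after seeing the data, left 1 and 23. Leaving out 1 array gave 0 to 5 calls in cmt3 and 0 in kyp, 38 to 53 past 2-fold in cmt3 and 6 to 16 in kyp, and median sizes of 0.2754 to 0.3897 in cmt3 and 0.1514 to 0.1914 in kyp. The cause of these changes was not tested. No named difference reversed. Named cmt3 differences moved by more than the spread between arrays only with the slide as a block: DR4 to 3.63, AT1G74290 to 5.19, AT1G73120 to 2.69, KTI1 to 4.13 and AT1G74010 to -2.92. Where the spread was wide, single arrays still carried values: without cmt3 replicate 2 AT1G72880 was -0.08, AT1G73510 -1.93, AT1G72210 -1.50 and AT1G73550 -1.26. Without kyp replicate 2 RLP15 was -0.57, SCPL5 -0.48 and AT1G72910 0.90, the same as with the slide as a block. With 2 arrays a genotype and no background values, small differences at low intensity are the least certain.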
